A study of Homo sapiens with 10 samples.

Results

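The kinesins, the motor proteins that walk along microtubules or take them apart, were measured through 42 of the 17492 genes on the array. Members were taken by symbol, as every probe set whose gene symbol was KIF or KIFC followed by a digit, and each of the 42 genes had a single probe set. By their known roles, 15 act in mitosis, 15 carry cargo and 12 have other duties, mostly at cilia, in signalling or in the control of microtubule growth. CENPE is also a kinesin by its protein but not by its symbol, and is treated here as a partner gene.

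RNA came from A375, an established human skin melanoma line, hybridised to Clariom S arrays with 5 arrays for control cells and 5 for cells plated with doxycycline at 2 µg/ml. Cells of both groups were frozen on day 4. The series title names Omomyc, a MYC mutant that blocks MYC-driven transcription. Doxycycline commonly switches such transgenes on, but no label says how the A375 cells carry it, and no array came from doxycycline-treated cells without Omomyc, so effects of the drug itself cannot be told apart from those of the transgene. The labels call the arrays biological replicas without saying whether they came from separate cultures, and p-values therefore measure only the spread between these arrays.

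Kinesins turn ATP hydrolysis into movement along microtubules, with the motor domain at the front, in the middle or at the end of the chain. Transport kinesins haul vesicles, organelles and ciliary cargo for the whole life of a cell. Mitotic kinesins push spindle poles apart, move and align chromosomes, trim microtubule ends and build the midzone at which cytokinesis takes place, and in cycling cells their RNAs are made mostly in G2 and M phase.

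Doxycycline-treated cells had less RNA signal for most mitotic kinesins and slightly more for most transport kinesins. Among the 15 mitotic members 12 fell and none rose, beside 17.2% of all 18569 probe sets called lower, and the median log2 fold change of the class was -1.03. Of the 15 transport members 8 rose and 1 fell, beside 20.9% of all probe sets called higher, with a class median of 0.32. The 12 remaining members went both ways, with 2 higher and 3 lower (4 and 2 after centring each array on its median, 1 and 3 after quantile normalization again) and a median of 0.18. Over all probe sets the median was 0.04. In all, 26 of 42 kinesins were called, beside 38.1% of probe sets, and 20 had groups without overlap, beside 28.6%. Of the 42 kinesins 9 were called and changed by at least 1 log2 unit, beside 6.47% of probe sets. In such bulk RNA, fewer cells in G2 and M phase and less RNA per cell cannot be told apart. The call is an adjusted p under 0.05 in limma, with Benjamini-Hochberg adjustment over every probe set.

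**Figure D1:**
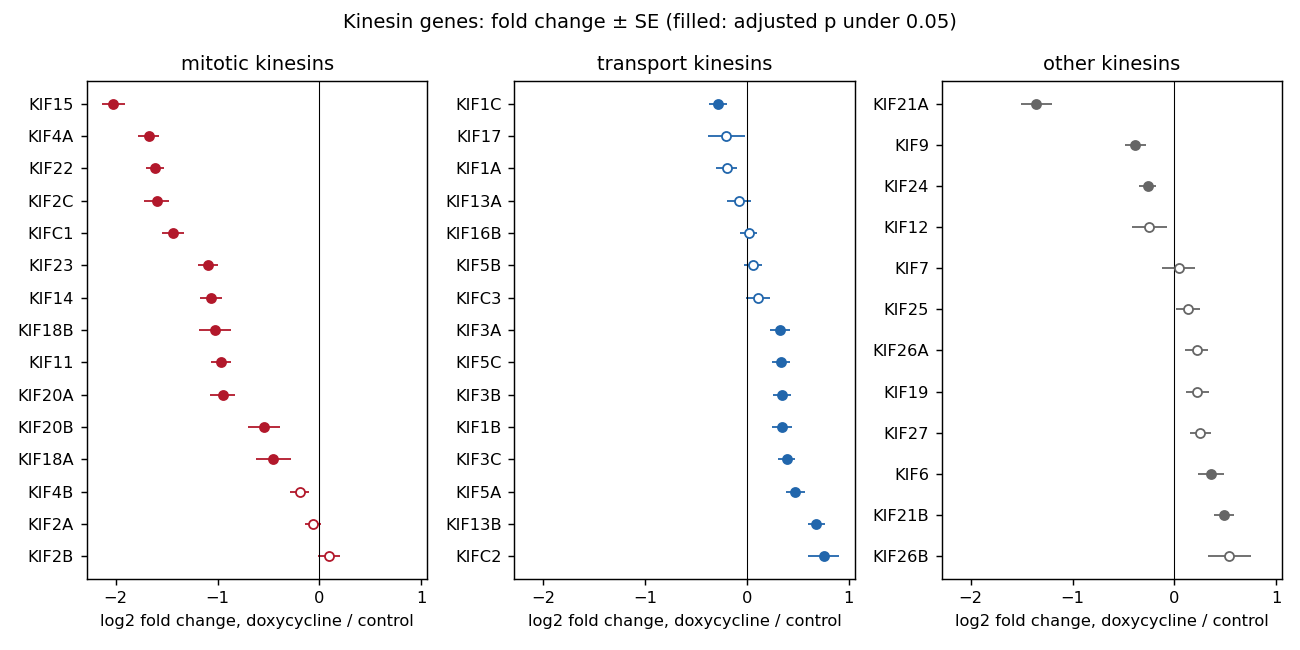
Log2 fold change of doxycycline over control for the 42 kinesin genes in 3 panels by role, with bars of 1 SE and filled points for an adjusted p under 0.05. Mitotic kinesins run from KIF15 at -2.02 to KIF2B at 0.10, and transport kinesins from KIF1C at -0.28 to KIFC2 at 0.75.

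The label of the line was checked on markers. SOX10 (8.71 ± 0.13 log2 units in control, SD, n = 5) and MITF (7.12 ± 0.07) were well measured, whereas PMEL, MLANA, TYR and TYRP1 lay below the first quartile of probe set means. MITF, the melanocyte lineage regulator, rose by 1.21 log2 units. Of the 6 measured melanocytic markers 2 were called higher (33.3%), MITF and the dim TYR (0.23), beside 20.9% of all probe sets. SOX10 (log2 fold change 0.19), PMEL, MLANA and TYRP1 were not called. The summed signal of the 6, mostly SOX10 and MITF, ranged from 547 to 629 in control and from 772 to 899 with doxycycline. Of 4 fibroblast markers 3 were called higher with doxycycline (75%), beside 20.9% of all probe sets. LUM rose by 1.52, PDGFRA by 1.64 and DCN by 0.40 log2 units. The summed signal of the 4 ranged from 65.6 to 72.7 in control and from 132 to 150.2 with doxycycline. The part of either list in the kinesin values was not tested. Of 4 keratinocyte and 4 leukocyte markers 1 each was called higher (25%), KRT5 and CD14, near the 20.9% of all probe sets. Of 3 endothelial markers none was called. KRT5 lay below the first quartile of probe set means, and its call was lost without any of 3 single arrays. Summed signals in control and with doxycycline ran from 21.8 to 27.1 and 23.4 to 28.5 for keratinocytes, 417 to 536 and 509 to 661 for leukocytes, mostly CD68, and 19.3 to 23.1 and 19.0 to 27.9 for endothelium.

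Most mitotic kinesin promoters carried a short word that 1 of 11 transport kinesin promoters held, and the stretches below are shown to set genes that fell and hold the word beside KIF2C and KIF21A, which fell without it, KIF24, which holds it outside the mitotic class, and KIF2A, which was not called. The word, TTTGAA or TTCGAA, is that of the cell cycle genes homology region, CHR, which MuvB complexes bind in genes of G2 and M phase. CCAAT, the letters of the box that the factor NF-Y binds, often lies upstream of it. Each sequence below runs 5′ to 3′ on the gene's strand, from 110 bases before the RefSeq start (GRCh38.p14) to 15 after it, and capitals mark a match to either CHR word or to CCAAT on either strand.
KIF15 (chr3:44761684-44761808, plus strand): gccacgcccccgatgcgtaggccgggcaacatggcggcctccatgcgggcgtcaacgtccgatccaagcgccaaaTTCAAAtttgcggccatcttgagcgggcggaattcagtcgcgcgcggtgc
KIF4A (chrX:70289994-70290118, plus strand): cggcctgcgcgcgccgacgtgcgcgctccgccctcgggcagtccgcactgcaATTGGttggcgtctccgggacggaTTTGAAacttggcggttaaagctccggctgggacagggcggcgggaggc
KIF22 (chr16:29790641-29790765, plus strand): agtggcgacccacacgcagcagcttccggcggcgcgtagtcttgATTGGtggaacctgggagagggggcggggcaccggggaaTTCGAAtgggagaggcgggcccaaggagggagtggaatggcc
KIFC1 (chr6:33391713-33391837, plus strand): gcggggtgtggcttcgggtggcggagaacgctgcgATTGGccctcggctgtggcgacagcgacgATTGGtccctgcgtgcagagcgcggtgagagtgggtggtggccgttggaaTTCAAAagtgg
KIF11 (chr10:92593020-92593144, plus strand): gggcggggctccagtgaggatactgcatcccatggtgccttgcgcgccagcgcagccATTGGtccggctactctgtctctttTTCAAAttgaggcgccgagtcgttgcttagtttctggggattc
KIF2C (chr1:44739727-44739851, plus strand): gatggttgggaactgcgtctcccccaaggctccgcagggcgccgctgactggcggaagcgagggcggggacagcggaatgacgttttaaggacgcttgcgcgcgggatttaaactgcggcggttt
KIF2A (chr5:62306096-62306220, plus strand): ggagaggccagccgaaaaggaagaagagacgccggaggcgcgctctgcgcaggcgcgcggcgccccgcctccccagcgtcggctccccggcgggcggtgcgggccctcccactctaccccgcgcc
KIF24 (chr9:34329254-34329378, minus strand): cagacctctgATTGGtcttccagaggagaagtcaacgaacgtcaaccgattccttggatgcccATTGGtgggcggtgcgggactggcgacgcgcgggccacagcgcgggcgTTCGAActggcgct
KIF21A (chr12:39443106-39443230, minus strand): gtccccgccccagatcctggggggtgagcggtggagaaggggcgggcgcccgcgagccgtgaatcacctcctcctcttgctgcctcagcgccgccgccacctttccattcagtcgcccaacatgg

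A promoter window of 250 bases before to 50 after the start was at hand for 34 of the 42 genes. KIF5A, KIF13B, KIF19, KIF21B, KIF26B, KIF27, KIFC2 and KIFC3 had none. The transport shares thus leave out the motors that rose most, KIFC2, KIF13B and KIF5A (log2 fold changes of 0.75, 0.68 and 0.48). Of the 15 mitotic windows 11 held TTTGAA or TTCGAA on either strand, against 16.7% of the windows of 27305 genes, 1 of 11 transport windows and 1 of 8 others. All 11 mitotic matches lay between 100 bases before and 50 bases after the start, a stretch in which 7.46% of all windows had a match. The transport match, in KIF5B, began at position -140 (position -1 is the base before the start). CCAAT stood in 11 of 15 mitotic windows, 4 of 11 transport windows and 3 of 8 others, against 35.7% of all windows. CHR word and CCAAT occurred together in 10 of 15 mitotic windows and in 6.63% of all.

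Word and change did not match in every gene. KIF2C and KIF20A fell without TTTGAA or TTCGAA in this window. KIF2C, KIF21A, KIF9 and KIF1C fell with neither of these words nor CCAAT. No other spelling of the CHR was searched, so a window without these words may still hold a CHR. KIF4B had the word near its start and did not pass the test, at a signal near the background. In KIF24, a member outside the mitotic class, TTCGAA began at position 2 (the start is position 1) and the signal fell by 0.26 log2 units. The letters CACGTG, an E-box of the kind MYC and MAX bind, were in none of the 34 kinesin windows and in 7.41% of all. With so low a share and only 34 windows, this absence does not set kinesins apart from other genes. The words were searched as exact letters on both strands and counted separately from each other, TTCGAA reads the same on both strands, and a match is not a measured binding site.

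**Figure D2:**
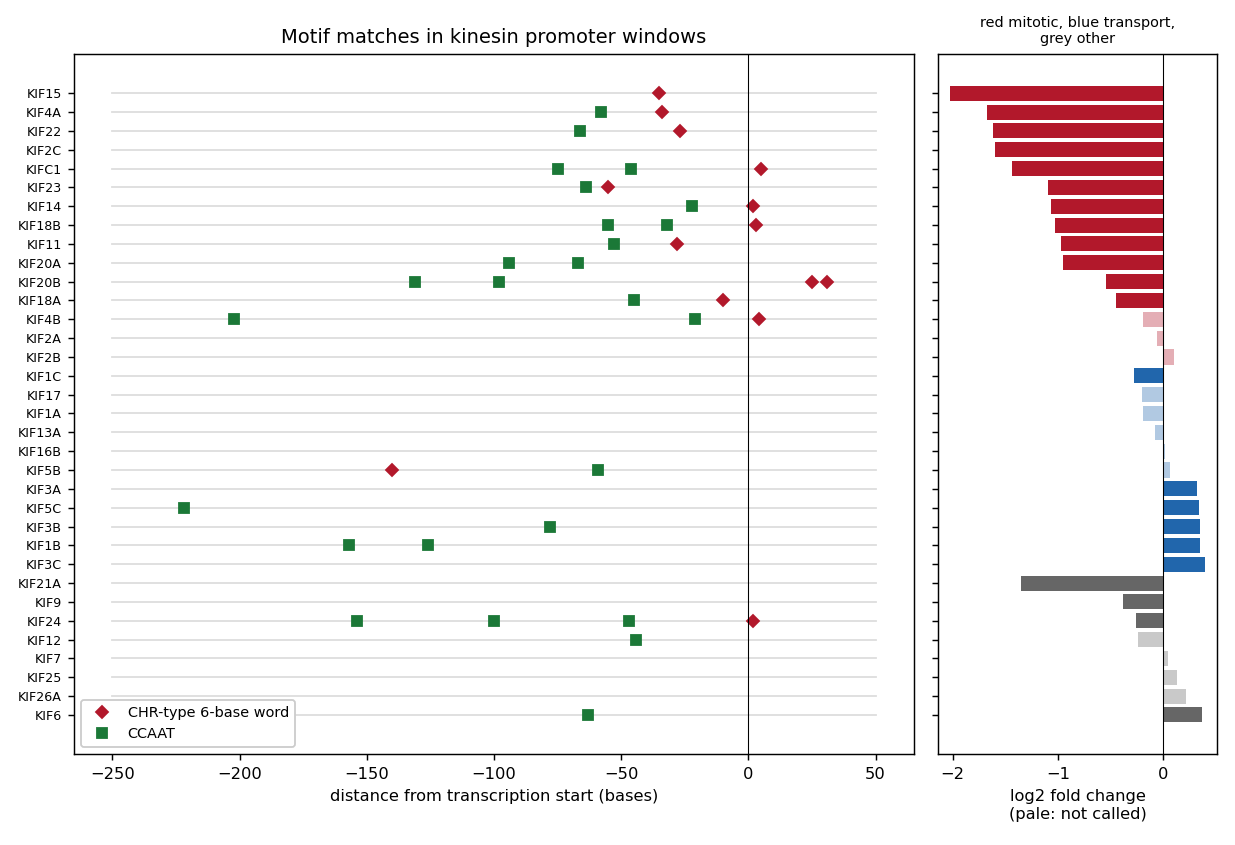
Left, positions of CHR-type words (diamonds) and CCAAT (squares) relative to the transcription start, in bases, for the 34 kinesin genes with a promoter window; right, the log2 fold change of each gene, pale where it was not called. Diamonds cluster around the start in 11 of the 15 mitotic rows, and KIF2A, KIF2B and KIF2C have neither word.

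KIF15, a spindle motor that helps keep the poles apart, fell most. It read 5.69, 5.28, 5.79, 5.82 and 5.64 log2 units on control arrays 1 to 5, and 3.49, 3.58, 3.57, 3.87 and 3.60 on doxycycline arrays 1 to 5. Every doxycycline array lay below every control array, and the difference was 4.06-fold (log2 fold change -2.02 ± 0.11 SE, adjusted p = 2.52e-09). KIF11, the plus-end motor that first separates the poles and the target of spindle-blocking drugs, fell by less. Its values were 7.41, 7.50, 7.65, 7.69 and 7.50 in control and 6.74, 6.32, 6.75, 6.46 and 6.63 with doxycycline, again without overlap (log2 fold change -0.97 ± 0.10 SE, 1.96-fold). Both genes were read on the same arrays, so their changes were compared within each array. The pairs here and below were chosen with earlier results of these data known, so their p-values are descriptive only. KIF15 fell by 1.05 ± 0.15 log2 units more than KIF11 (exact two-sided permutation test, p = 0.00794, adjusted p = 0.0119 over 12 paralogue or partner pairs, where 0.00794 is the smallest p that 5 against 5 arrays allow).

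Chromosome-arm motors were among the strongest falls. KIF4A, a chromokinesin that shapes chromosome arms and later shortens midzone microtubules, read 6.53, 6.63, 6.80, 6.60 and 6.94 in control and 5.12, 4.90, 5.06, 5.23 and 4.80 with doxycycline. This was a 3.20-fold difference with no overlap (log2 fold change -1.68 ± 0.10 SE, adjusted p = 8.13e-09). KIF22, also named Kid, pushes chromosome arms toward the spindle equator. Its control values of 7.48, 7.24, 7.27, 7.38 and 7.37 compared with 5.81, 5.90, 5.81, 5.57 and 5.57 under doxycycline, a fall of 1.61 ± 0.09 SE on the log2 scale (adjusted p = 2.93e-09). KIF4B, an intronless copy closely related to KIF4A, read 2.04, 1.79, 2.10, 1.89 and 1.89 in control and 1.97, 1.66, 1.71, 1.63 and 1.77 with doxycycline, below the first quartile of probe set means of 2.85. Its fold change of -0.19 did not pass (adjusted p = 0.112), and since the copies may share hybridisation this value is uncertain.

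The kinesins that take microtubule ends apart split. KIF2C, or MCAK, which corrects wrong attachments at centromeres, read 6.22, 6.07, 6.26, 6.48 and 5.96 in control and 4.32, 4.66, 4.73, 4.39 and 4.89 with doxycycline. The groups were apart by more than 1 log2 unit at their nearest values, and the fall was 1.60 ± 0.12 SE on the log2 scale (adjusted p = 7.87e-08). KIF2A, a relative that works at spindle poles and also in non-dividing neurons, gave 7.08, 7.04, 7.24, 7.14 and 7.18 in control and 6.94, 7.08, 7.16, 7.19 and 7.005 with doxycycline. The groups overlap, although doxycycline arrays 1 and 5 lay below all control arrays, and the log2 fold change was -0.06 ± 0.08 SE (adjusted p = 0.599). Within arrays the gap between KIF2A and KIF2C widened by 1.53 ± 0.14 log2 units (exact permutation test, adjusted p = 0.0119). KIF2B was dim, with 3.31, 3.38, 3.57, 3.80 and 3.47 in control and 3.77, 3.67, 3.65, 3.58 and 3.34 with doxycycline, and did not pass (log2 fold change 0.10, adjusted p = 0.541).

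KIFC1, also called HSET, walks to the minus end, focuses poles and clusters extra centrosomes in tumour cells. It read 6.69, 6.72, 6.94, 6.56 and 6.99 in control and 5.14, 5.53, 5.27, 5.26 and 5.53 with doxycycline, so all 5 treated arrays were lower (log2 fold change -1.44 ± 0.11 SE, 2.71-fold, adjusted p = 5.66e-08). KIFC3, another minus-end motor, which works at adherens junctions and the Golgi, had 5.75, 5.31, 5.51, 5.44 and 5.45 against 5.28, 5.66, 5.84, 5.42 and 5.81, with a log2 fold change of 0.11 ± 0.12 SE. The change of KIFC1 lay 1.55 ± 0.14 log2 units below that of KIFC3 (difference -1.55, exact permutation test, adjusted p = 0.0119).

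Motors of the midzone and of cytokinesis fell as well. KIF23, also called MKLP1, which with RACGAP1 forms the centralspindlin complex, gave 8.36, 8.19, 8.25, 8.65 and 8.32 in control and 7.18, 7.24, 7.47, 7.26 and 7.12 with doxycycline. The groups did not overlap (log2 fold change -1.10 ± 0.10 SE, adjusted p = 4.71e-07). KIF14, which brings citron kinase to the midbody, had a log2 fold change of -1.06 ± 0.11 SE, and KIF20A, or MKLP2, which carries the chromosomal passenger complex to the midzone, one of -0.95 ± 0.12 SE. KIF18B, which shortens astral microtubules, fell by 1.03 ± 0.16 SE on the log2 scale.

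Smaller and less even falls were seen for KIF20B and KIF18A, and doxycycline array 1 was low for both. KIF20B, a midbody and midzone motor, read 6.83, 7.17, 6.99, 7.30 and 6.95 in control and 5.82, 6.58, 6.79, 6.58 and 6.76 with doxycycline (log2 fold change -0.54 ± 0.16 SE, adjusted p = 0.0146). KIF18A, which damps chromosome oscillations at the metaphase plate, read 5.79, 5.72, 5.82, 5.999 and 5.89 in control and 4.67, 5.34, 5.84, 5.75 and 5.36 with doxycycline, the only called mitotic member whose groups overlapped. Its log2 fold change of -0.45 ± 0.17 SE just passed (adjusted p = 0.0499), and the call was lost under 11 of 17 alternatives. Without doxycycline array 1 the log2 fold change was -0.27 for KIF18A (adjusted p = 0.0743) and -0.37 for KIF20B, whose call held. In 11 of the 15 mitotic members every doxycycline array was below every control array, beside 13.6% of all probe sets.

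**Figure D3:**
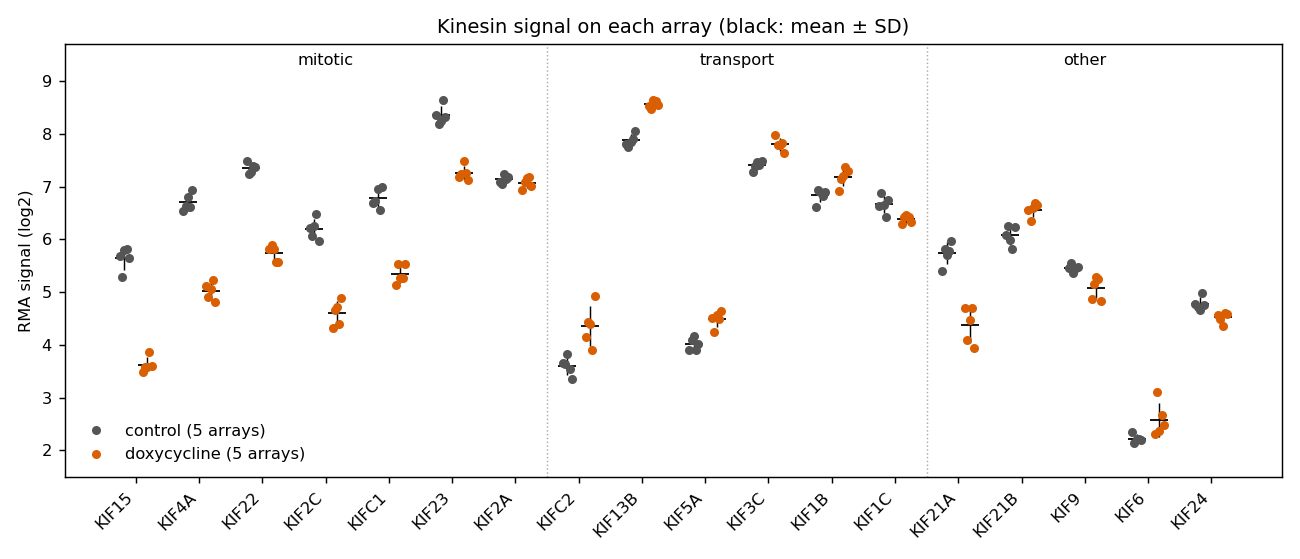
RMA signal (log2) of 18 kinesin genes on each of the 5 control (grey) and 5 doxycycline (orange) arrays, with black marks for the mean and bars for the SD; dotted lines part mitotic, transport and other members. The groups are apart for KIF15 (5.65 against 3.62) and coincide for KIF2A (7.14 against 7.07).

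The pairs KIF18A and KIF18B, and KIF20A and KIF20B, were not told apart in their change over all 10 arrays (differences of 0.57 ± 0.36 and -0.41 ± 0.28 log2 units, exact permutation test, adjusted p = 0.233 and 0.251). Without doxycycline array 1 both pairs passed (adjusted p = 0.0190 and 0.0119), so that array decided these calls.

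Most mitotic partner genes fell too. Of 23 measured genes that work with mitotic kinesins, 19 fell, beside 17.2% of all probe sets, and 2 rose slightly, CLASP2 and NUMA1, with a list median of -1.08. The 19 were lower without overlap, beside 13.6% of all probe sets. BIRC5 or survivin (-1.83 ± 0.13), the kinase gene AURKB (-1.53 ± 0.08) and CDCA8 or borealin (-1.36 ± 0.13) belong to the chromosomal passenger complex, and PRC1 (-1.25 ± 0.09) bundles the midzone on which KIF4A and KIF23 act. CENPE, the kinesin that carries chromosomes to the spindle equator, fell by 0.84 ± 0.19 SE on the log2 scale (adjusted p = 0.00215). The proliferation marker MKI67 fell from 8.32 ± 0.22 to 6.74 ± 0.28 log2 units (SD, n = 5; limma, adjusted p = 2.58e-07).

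Among the transport motors KIFC2, a minus-end motor best known from neurons, rose most. It read 3.65, 3.63, 3.83, 3.55 and 3.35 in control and 4.14, 4.43, 4.39, 3.90 and 4.92 with doxycycline, all higher than control (log2 fold change 0.75 ± 0.16 SE, 1.69-fold, adjusted p = 0.00118). KIF13B, which carries phosphoinositide-bound vesicles and receptors, changed by a like amount with far less scatter. Its values were 7.81, 7.75, 7.85, 7.91 and 8.05 in control and 8.52, 8.47, 8.64, 8.61 and 8.54 with doxycycline (log2 fold change 0.68 ± 0.08 SE, adjusted p = 7.51e-06). KIF13A, its paralogue in endosome and melanosome transport, had 5.97, 6.36, 6.17, 6.43 and 5.99 against 6.02, 5.84, 6.12, 6.39 and 6.14, which overlap (log2 fold change -0.08 ± 0.12 SE). The changes of KIF13A and KIF13B differed by -0.76 ± 0.14 log2 units (exact permutation test, adjusted p = 0.0119).

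Conventional kinesin, the main organelle motor of most cells, is built from KIF5A, KIF5B or KIF5C. KIF5A, the neuronal form, read 3.91, 4.09, 4.17, 3.89 and 4.01 in control and 4.51, 4.25, 4.56, 4.49 and 4.64 with doxycycline, with no overlap (log2 fold change 0.48 ± 0.09 SE, adjusted p = 7.26e-04). KIF5C, also mainly neuronal, changed by 0.34 ± 0.09 log2 units (adjusted p = 0.00786), with the lowest doxycycline array (4.86) just below the highest control array (4.88). KIF5B, the ubiquitous form, gave 9.13, 9.23, 9.32, 9.18 and 9.45 against 9.34, 9.22, 9.42, 9.19 and 9.46 and did not pass (log2 fold change 0.06 ± 0.09 SE, adjusted p = 0.630). KIF5A rose by 0.41 ± 0.07 log2 units more than KIF5B within arrays (exact permutation test, adjusted p = 0.0119).

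Subunits of heterotrimeric kinesin, which drives cargo into cilia and along axons, shifted together by small amounts. KIF3C read 7.27, 7.40, 7.46, 7.41 and 7.49 in control and 7.97, 7.78, 7.78, 7.82 and 7.64 with doxycycline (log2 fold change 0.39 ± 0.08 SE, adjusted p = 0.00150). KIF3B, at 7.18 to 7.60 in control and 7.68 to 7.80 with doxycycline, rose by 0.34 ± 0.09 SE on the log2 scale, and KIF3A, at 5.94 to 6.27 and 6.21 to 6.58, by 0.32 ± 0.10. The changes of KIF3A and KIF3B were not told apart (difference -0.02 ± 0.16, exact permutation test, adjusted p = 0.913). KIFAP3, the accessory subunit that links these motors to cargo, rose by 0.37 ± 0.08 SE on the log2 scale (adjusted p = 0.00165); it was picked here after its value was seen.

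KIF1B and KIF1C, which carry mitochondria, synaptic vesicle precursors and other vesicles, went opposite ways. KIF1B read 6.61, 6.94, 6.91, 6.81 and 6.89 in control and 6.91, 7.15, 7.20, 7.37 and 7.29 with doxycycline (log2 fold change 0.35 ± 0.10 SE, adjusted p = 0.0113). KIF1C read 6.62, 6.87, 6.65, 6.42 and 6.75 in control and 6.28, 6.42, 6.46, 6.43 and 6.33 with doxycycline, the only transport motor that fell (log2 fold change -0.28 ± 0.09 SE, adjusted p = 0.0227). The groups overlapped in both genes, through control array 4 for KIF1C and doxycycline array 1 for KIF1B. The call of KIF1C was lost without control array 2 (adjusted p = 0.0664) or control array 5 (adjusted p = 0.0522). Their difference in change was 0.63 ± 0.09 log2 units (exact permutation test, adjusted p = 0.0119).

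Besides KIF5B, KIF13A and KIFC3, the transport motors that did not pass were KIF1A, KIF16B and KIF17. KIF16B, which moves early endosomes, read 6.01 to 6.31 in control and 6.08 to 6.19 with doxycycline. KIF1A, a neuronal vesicle motor, had a log2 fold change of -0.20 ± 0.10, and KIF17, a dendritic and ciliary motor, of -0.20 ± 0.18, with a mean below the first quartile of probe set means. Of the 15 transport members 5 were higher without overlap between groups, beside 14.9% of all probe sets.

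Genes that couple transport kinesins to their loads partly rose. Among 21 measured adaptors 8 rose (38.1%) and 2 fell (9.52%), beside 20.9% higher and 17.2% lower over all probe sets. After median centring 10 rose and 1 fell, beside 4393 higher and 2916 lower of all 18569 probe sets. Without control array 2, or without doxycycline array 4, 6 rose and 1 fell. The list median was 0.20. TRAK1 (0.90 ± 0.08) and TRAK2 (0.82 ± 0.09), the adaptors that hang mitochondria on KIF5, and MAPK8IP1 (0.76 ± 0.12), a JIP scaffold, were the largest rises. RHOT1, a mitochondrial anchor for the TRAK adaptors, fell by 0.97 ± 0.11 SE on the log2 scale, from 5.75 to 6.15 in control to 4.73 to 5.31 with doxycycline. Its paralogue RHOT2 rose by 0.27 ± 0.09 SE without overlap (limma, adjusted p = 0.0290), a call lost without any of 5 single arrays.

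The classes were apart on every doxycycline array. Their closeness on the control arrays follows from centring each gene on its control mean and is not a result. Relative to each gene's control mean, the median of the 15 mitotic members was -1.18, -1.12, -0.88, -1.09 and -1.14 on doxycycline arrays 1 to 5, and between -0.11 and 0.14 on the control arrays. The transport median was 0.11, 0.21, 0.33, 0.25 and 0.32 on the same doxycycline arrays and between -0.10 and 0.06 in control. Array 3 of the doxycycline group was thus the least lowered for mitotic members and the most raised for transport members. The gap between the class medians of the fold changes was -1.35, given as a description because the classes were drawn up with results known.

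**Figure D4:**
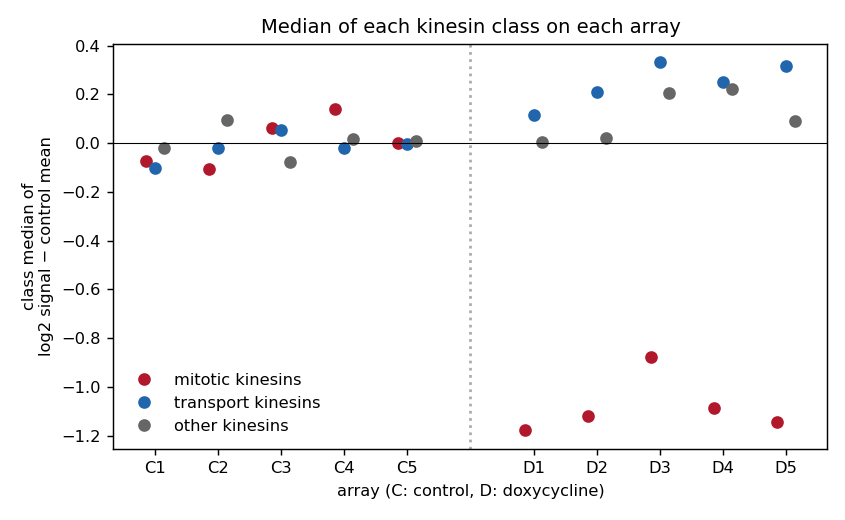
Median, over the genes of each class, of the log2 signal minus the gene's control mean, for each of the 10 arrays (C control, D doxycycline). Mitotic medians on doxycycline arrays run from -1.18 to -0.88, and transport medians from 0.11 to 0.33.

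Among the members with other duties, the KIF21 pair parted most. KIF21A, which holds back microtubule growth at the cell cortex, read 5.41, 5.83, 5.71, 5.77 and 5.96 in control and 4.69, 4.10, 4.47, 4.70 and 3.95 with doxycycline. All treated arrays were lower, by 2.56-fold on the mean (log2 fold change -1.35 ± 0.15 SE, adjusted p = 3.66e-06). KIF21B, its paralogue in neurons and immune cells, read 6.08, 6.25, 5.99, 5.81 and 6.24 in control and 6.56, 6.34, 6.59, 6.69 and 6.65 with doxycycline, all higher (log2 fold change 0.49 ± 0.10 SE, adjusted p = 0.00126). The difference between their changes, -1.84 ± 0.18 log2 units, was the largest of the 12 pairs tested (exact permutation test, adjusted p = 0.0119).

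Cilium-linked members moved little. KIF9, a motor of motile cilia and flagella, read 5.46, 5.55, 5.35, 5.45 and 5.48 in control and 4.88, 5.14, 5.28, 5.25 and 4.83 with doxycycline, without overlap (log2 fold change -0.38 ± 0.10 SE, adjusted p = 0.00681). KIF24, which restrains cilium formation in cycling cells, read 4.78, 4.72, 4.66, 4.99 and 4.76 in control and 4.56, 4.50, 4.36, 4.60 and 4.58 with doxycycline. Its fall of 0.26 ± 0.09 SE on the log2 scale (adjusted p = 0.0247) lost the call without control array 4 (adjusted p = 0.0639), without doxycycline array 3 (adjusted p = 0.0709), after median centring (adjusted p = 0.0501) and in limma with a trended, robust variance prior (adjusted p = 0.0735). KIF6, at 2.35, 2.14, 2.21, 2.22 and 2.20 against 2.31, 3.10, 2.36, 2.66 and 2.49, lay below the first quartile of probe set means, and its rise (log2 fold change 0.36 ± 0.13 SE, adjusted p = 0.0388) was lost without any of 6 single arrays, among them doxycycline array 2 (log2 fold change 0.23, adjusted p = 0.0725). It was also lost after quantile normalization again (adjusted p = 0.0796) and in limma with the replicate number as a block (adjusted p = 0.0653).

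The 7 members of this class that did not pass all had mean signals below the median of probe set means, 5.07. KIF26B, a signalling kinesin without motor activity, scattered widely with doxycycline, at 3.51, 2.22, 2.96, 3.57 and 2.75 against 2.15 to 2.75 in control (log2 fold change 0.54 ± 0.21 SE, adjusted p = 0.0581). KIF27 (0.25), KIF19 (0.23), KIF26A (0.22), KIF25 (0.13), KIF7, the Hedgehog regulator at the cilium tip (0.04), and KIF12 (-0.25) are given as log2 fold changes. Changes of KIF26A and KIF26B were not told apart (difference -0.32 ± 0.23, exact permutation test, adjusted p = 0.251). The eighth pair to pass, KIF4A and KIF4B (difference -1.48 ± 0.13, adjusted p = 0.0119), rests on a KIF4B signal near the background.

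Lists for the opposing motor, the ciliary trains and the tracks are read against all probe sets, of which 20.9% were called higher and 17.2% lower. Of 25 measured genes of cytoplasmic dynein and dynactin, the minus-end transport machine, 10 rose (40%) and 3 fell (12%), with a median of 0.08. After quantile normalization again 8 rose and 4 fell. With the replicate number as a block in limma, or without control array 3, 7 rose and 2 fell. SPDL1, which brings dynein to kinetochores in mitosis, fell by 0.61 ± 0.11 SE on the log2 scale, and the dynein intermediate chain DYNC1I1 (0.50 ± 0.11), the dynactin subunit DCTN6 (0.39 ± 0.10) and the light chain DYNLRB1 (0.37 ± 0.10) rose. Of 23 intraflagellar transport genes 6 rose (26.1%) and 4 fell (17.4%), shares near those over all probe sets, with a median of -0.03. Among the called genes the largest changes were those of IFT52 (-0.63 ± 0.14), WDR19 (0.61 ± 0.08), DYNC2LI1 (0.49 ± 0.12) and IFT56 (-0.39 ± 0.11). IFT52 and WDR19 are parts of the trains that KIF3 motors pull, and DYNC2LI1 is a dynein light intermediate chain. IFT81 changed by 0.50 ± 0.20 log2 units and was not called. Of 20 tubulins 4 rose (20%, near the share over all probe sets) and 6 fell (30%), with a median of 0.02. After quantile normalization again 4 rose and 4 fell. The largest change was that of epsilon tubulin TUBE1, a centriole component (-1.44 ± 0.11). TUBA4A (0.49 ± 0.13) and TUBG2 (0.46 ± 0.10) rose, and TUBB4B (-0.48 ± 0.09) fell. Tubulin genes share much sequence, so their probe sets may share signal.

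**Figure D5:**
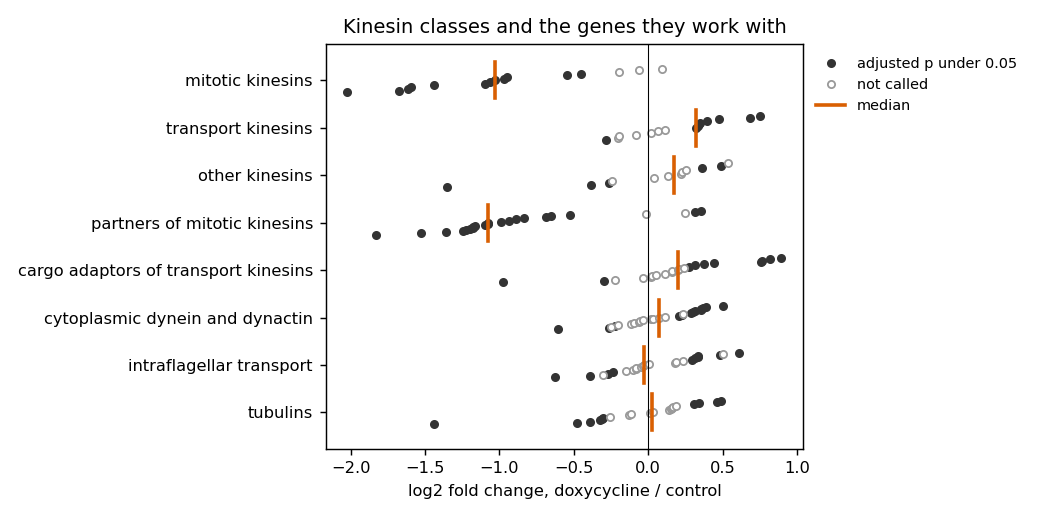
Log2 fold change of doxycycline over control for each gene of the 3 kinesin classes and 5 lists of related genes, with filled points for an adjusted p under 0.05 and an orange bar for the median. The median of the mitotic partners (-1.08) lies near that of the mitotic kinesins (-1.03), and the other lists centre between -0.03 and 0.20.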

How the data were processed

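Total RNA of 10 samples was labelled with biotin and hybridised to Clariom S human HT arrays. The authors deposited a table of log2 signals for 18569 probe sets. RMA is the tool that the submitters' processing notes name, and its version is not given in the sources used here. RMA gives all arrays a like distribution, which hides shifts in total RNA. Array medians ran from 5.02 to 5.10, and precision is limited by how many arrays there are. Symbols came from the platform annotation, and all 42 kinesin symbols are current in RefSeq.

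The groups were compared in limma 3.58.1 (R 4.3.3) by lmFit and eBayes, with group as the only term, no filter and two-sided tests. Errors of fold changes are limma's standard errors. Paralogue pairs were tested on per-array differences with an exact permutation test, adjusted over 12 pairs, and their errors are standard errors of the difference of group means. Both tests were checked on simulated data.

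Members, classes, pairs and lists were chosen with earlier results of these data known, so lists carry no test of their own. For the same reason the p-values of the pairs are descriptive only. All kinesins are named. Values on every array are given for the 6 mitotic, 5 transport and 5 other called kinesins with the largest change, for members of differing pairs, and for KIF18A and KIF20B, which were added after their values were seen. Up to 4 called genes of each partner list by size of change, CENPE and MKI67 are named too. The risers CLASP2, NUMA1, KIFAP3 and RHOT2 were added after their values were seen. Promoters came from RefSeq (GRCh38.p14), 1 window a gene at the most upstream start in the table. Those of KIFC1 and KIF24 start downstream of the gene's annotated 5′ end.

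Alternatives dropped dim probe sets, rescaled the arrays, changed the variance prior, weighted arrays, blocked by replicate number, or left out each array in turn.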

Additional observations from a re-analysis of the deposited data

Results flagged for a closer look

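In 84 groups of 5 arrays (42 kinesins in each condition) 2 held an array far from the other 4, or 2.38%, and chance alone flags about 1 in 20 such groups. KIF20B read 5.82 on doxycycline array 1, below the 6.58 to 6.79 of the other doxycycline arrays. KIF17 read 3.13 on the same array, above the 2.26 to 2.46 of the others, at a signal near the background.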

How the results depend on the processing

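The counts of called mitotic kinesins (10 to 12), transport kinesins (6 to 10) and partner and pathway genes (55 to 71) stayed within 1.5 times their main value under every alternative run. In the main setting 64 of 112 partner and pathway genes were called, beside 38.1% of all probe sets. Fewer members were left where dim probe sets were dropped. Without probe sets under the median 10 of 11 mitotic and 6 of 10 transport members were called. The 5 other kinesins called became 2 without probe sets under the median, where 2 members were left. The gap between mitotic and transport medians ran from -1.37 to -1.25 when each array was left out and from -1.37 to -1.28 otherwise. Over all probe sets 7078 were called, 1202 when a log2 fold change of at least 1 was also asked, and 6378 to 7237 without each array. Of 12 pairs 8 differed, 8 to 10 without each array, and 4 of 6 without probe sets under the median. With the replicate block, a sign-flip test of 5 same-numbered differences, 0 pairs passed, as its smallest possible p is 0.0625. In limma the replicate block called 6476 probe sets and took the call only from KIF6 among the kinesins. Arrays of the same number did not deviate together (correlations of -0.44 to -0.01), and 0 of 5 control arrays correlated best with their own number, so the numbers were not taken to pair the arrays. No called kinesin changed direction under any alternative. Calls that some alternatives took away were those of KIF18A, KIF1C, KIF24 and KIF6; KIF4B, KIF1A, KIF26A, KIF19, KIF27 and KIF26B gained one under some. The cause was not tested. Signal over background limits KIF4B, KIF6, KIF17, KIF25 and KIF26B, which lie below the first quartile.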
